A study of Mus musculus with 9 samples.

Results

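Lipid droplet coat and lipolysis genes were followed in mouse bone marrow-derived macrophages. The set held the coat proteins Plin2 and Plin3, the lipase inhibitor Hilpda, the lipases Pnpla2 and Mgll, the lipase activator Abhd5 and the triglyceride-forming enzymes Dgat1 and Dgat2. The 8 symbols were chosen by function, by someone who knew the measured expression differences between these groups, and a member was kept where its Ensembl identifier had a row in the deposited table. That held for 7 of the 8 members, among 12204 genes in all; Mgll, monoglyceride lipase, is not analysed here. Being listed means being detected, so the listing is no result, and counts over the members describe these 7 genes only.

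Marrow cells of C57/Bl6J mice had been grown for 6 days in 20% supernatant of L929 cells, which supplies macrophage growth factor. The 3 groups shared this strain and culture and had 3 libraries each: macrophages left untreated (UT), macrophages given 10 ng/ml lipopolysaccharide (LPS, a bacterial product sensed by Toll-like receptor 4) for 4 h, and macrophages given 50 µM BMS303141 for 1 h before the same LPS (LPS + BMS). BMS303141 inhibits ATP-citrate lyase, the enzyme that turns cytosolic citrate into acetyl-CoA, and the study asked what this enzyme does in macrophages stimulated through Toll-like receptors. Inhibitor without LPS was not among the groups and a vehicle is not named, so its effect could be read only in LPS-treated cells. Whether replicates came from different animals or dishes is not stated, and p-values therefore reflect the spread between libraries, which may be technical.

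Cells store surplus fatty acids as triglyceride in lipid droplets, whose surface carries perilipin coat proteins. The last step of triglyceride synthesis is made by the diacylglycerol acyltransferases encoded by Dgat1 and Dgat2. Breakdown starts with adipose triglyceride lipase, encoded by Pnpla2, which Abhd5 activates and which Hilpda, a small protein induced by hypoxia and by fatty acids, inhibits. Macrophages that take up lipid or meet bacterial products are known to accumulate droplets, and Plin2 is their main coat protein.

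Values are log2 CPM, the logarithm of read counts scaled to a common library total, from sequencing of transcript 3′ ends, where a transcript gives reads at its end whatever its length, so levels of different genes can be set side by side without a length correction. The libraries held roughly 1.80 to 4.92 M (mega) reads on listed genes, the fewest in LPS replicate 1. Outside of Dgat2, each member rested on at least about 29.4 reads in every library. All 10 macrophage markers listed for this check had values, summing to 8867 to 9452 CPM in untreated, 4128 to 5000 in LPS and 4920 to 5040 in LPS + BMS libraries, with Lyz2, the macrophage lysozyme, highest at 12.28 ± 0.15 log2 CPM in untreated libraries (SD, n = 3). None of 9 adipocyte markers, among them Adipoq, Plin1, Plin4 and Cidec, had a row to analyse. In these bulk libraries, fewer cells of a type and less RNA per cell cannot be told apart.

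The promoters of the members that responded to the inhibitor, and that of the lipase they bear on, were taken from RefSeq (GRCm38.p6), each running from 250 bases before a transcription start to 50 after it. Capitals mark the 5-letter hypoxia element core, ACGTG or GCGTG, on either strand; on the opposite strand it reads CACGT or CACGC.
Plin2 (chr4:86670010-86670309, minus strand): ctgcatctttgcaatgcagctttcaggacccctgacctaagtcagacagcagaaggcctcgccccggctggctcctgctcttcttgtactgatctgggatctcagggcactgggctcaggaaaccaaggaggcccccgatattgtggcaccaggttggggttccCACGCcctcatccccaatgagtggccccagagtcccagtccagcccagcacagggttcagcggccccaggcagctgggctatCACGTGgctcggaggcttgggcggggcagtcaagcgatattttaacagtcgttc
Hilpda (chr6:29272376-29272675, plus strand): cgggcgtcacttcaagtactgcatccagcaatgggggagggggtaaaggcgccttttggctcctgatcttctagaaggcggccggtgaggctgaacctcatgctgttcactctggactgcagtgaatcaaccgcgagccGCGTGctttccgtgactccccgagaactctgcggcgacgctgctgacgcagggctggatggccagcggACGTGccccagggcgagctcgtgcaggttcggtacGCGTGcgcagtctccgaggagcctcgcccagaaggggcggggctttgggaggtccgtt
Pnpla2 (chr7:141454938-141455237, plus strand): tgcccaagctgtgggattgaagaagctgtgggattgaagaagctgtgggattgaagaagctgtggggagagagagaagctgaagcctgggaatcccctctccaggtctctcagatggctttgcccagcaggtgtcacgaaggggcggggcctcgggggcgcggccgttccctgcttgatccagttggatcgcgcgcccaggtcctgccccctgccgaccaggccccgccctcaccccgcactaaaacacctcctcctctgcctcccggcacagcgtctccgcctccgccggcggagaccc
The Plin2 window held 3 core matches, 2 of which overlap in CACGTG, and the Hilpda window held 3. A second Hilpda start listed by RefSeq (chr6:29272238-29272537) had 1 match, which the printed window also contains. The Abhd5 window had 1 match and the Pnpla2 and Plin3 windows had 0. Such matches are common: 43.8% of 32851 RefSeq promoter windows held at least 1. The NF-kB consensus was found once in the Pnpla2 window and in no other window of a listed member, against 4.51% of all windows. The table of promoters matched 5 of the 7 listed members, and these matches describe letters only.

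LPS lowered the coat genes and the first lipase and raised one of the triglyceride-forming enzymes. Plin2 fell most, Pnpla2 and Plin3 fell less, and Dgat2 rose from near the detection limit. Hilpda, Abhd5 and Dgat1 did not pass the test. Of the 7 members, 3 were called lower and 1 higher at an adjusted p under 0.05 (limma, Benjamini-Hochberg over 12196 genes), where 25.4% of all tested genes were called lower and 21.5% higher, 47.0% in all, so that calls in this comparison are common. The 1 higher call is Dgat2, which passed the filter only because it was high in treated libraries, so this count supports nothing about the set. The same 4 members had groups that did not overlap, 3 lower and 1 higher, against 28.9% and 23.7% of all tested genes (52.6% in all). The median log2 difference of the members was -0.02, against -0.06 over all tested genes.

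**Figure D1:**
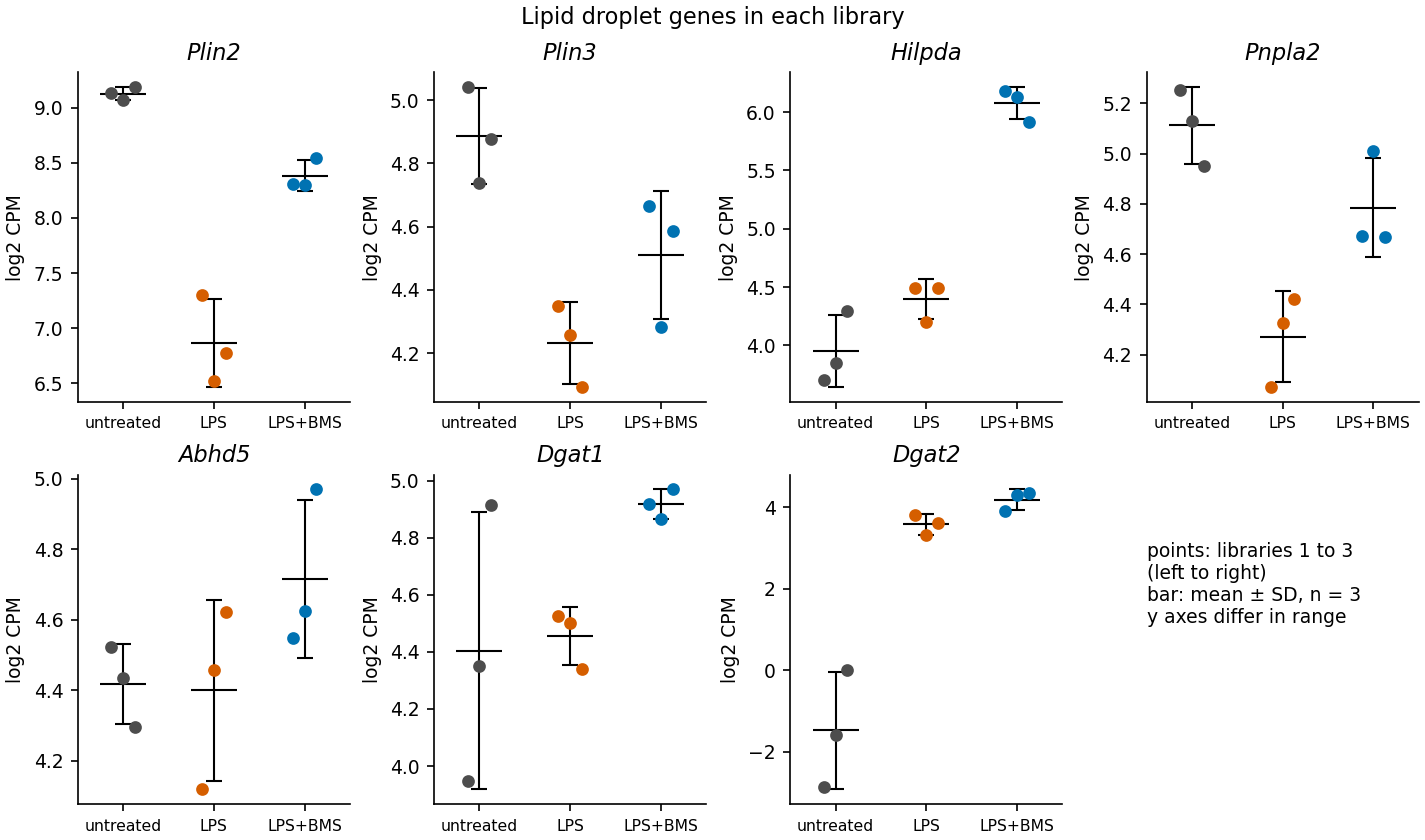
Deposited log2 CPM (y axis, with a range of its own in each panel) of the 7 lipid droplet genes in untreated, LPS and LPS + BMS libraries (x axis); points are libraries and bars the mean and SD of 3. Plin2 lies at 9.07 to 9.19 untreated, 6.52 to 7.30 with LPS and 8.30 to 8.54 with LPS + BMS, and Hilpda lies highest in all 3 LPS + BMS libraries.

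Plin2 encodes the main coat protein of macrophage droplets (ENSMUSG00000028494; GRCm38 chromosome 4, 86648386 to 86670060, minus strand). It stood at 9.13, 9.07 and 9.19 log2 CPM in untreated replicates 1 to 3 and at 7.30, 6.52 and 6.77 in LPS replicates 1 to 3. The groups lay far apart, and the LPS libraries scattered more than the untreated ones, with an SD of 0.40 against 0.06. The difference was -2.26 log2 (SE 0.16; 95% interval -2.61 to -1.91), a 4.8-fold fall (adjusted p = 8.69e-08, limma). Only 446 of the 12196 tested genes had a more negative difference. LPS replicate 1, the shallowest library, was the highest of the LPS libraries for Plin2, and without it the difference was -2.48 log2.

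Plin3 encodes a coat protein that also occurs in the cytosol and moves to forming droplets (ENSMUSG00000024197; chromosome 17, 56277476 to 56292873, minus strand). It stood at 5.04, 4.74 and 4.88 log2 CPM untreated and at 4.35, 4.26 and 4.09 with LPS. The groups did not overlap, but the step was small next to that of Plin2. The difference was -0.65 log2 (SE 0.17; adjusted p = 0.00599, limma).

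The unequal fall of the coat genes showed in their ratio within each library, where a constant factor per library cancels. The values were taken as quantile-normalised, an adjustment that varies with level. It need not cancel between genes of unlike level, here or in the ratios below. The log2 ratio of Plin2 to Plin3 was 4.09, 4.33 and 4.31 in untreated libraries and 2.95, 2.26 and 2.68 with LPS. It was lower in every LPS library than in any untreated one, by 1.61 log2 on average (-1.61; two-sided exact permutation p = 0.1, the smallest that 3 against 3 libraries can give).

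Pnpla2 encodes adipose triglyceride lipase (ENSMUSG00000025509; chromosome 7, 141455198 to 141460743, plus strand). It stood at 5.25, 5.13 and 4.95 log2 CPM untreated and at 4.07, 4.32 and 4.42 with LPS. All LPS libraries lay below all untreated ones. The difference was -0.84 log2 (SE 0.17; 95% interval -1.20 to -0.48; adjusted p = 0.00106, limma).

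Abhd5 encodes the protein that activates this lipase (ENSMUSG00000032540; chromosome 9, 122351608 to 122381524, plus strand). It stood at 4.52, 4.44 and 4.29 log2 CPM untreated and at 4.12, 4.46 and 4.62 with LPS. The groups overlapped, and the difference of -0.02 log2 (95% interval -0.41 to 0.38) missed the threshold by far (adjusted p = 0.945, limma). An antisense gene, A730085K08Rik, overlaps Abhd5 and had no row to analyse. The strand setting of the counting is not given in the sources used here, so whether its reads were counted as Abhd5 is not known.

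The ratio of activator to lipase differed between the groups by far more than its spread within them. The log2 ratio of Abhd5 to Pnpla2 was -0.73, -0.69 and -0.66 in untreated libraries and 0.05, 0.13 and 0.20 with LPS. Reads assigned to Abhd5, which may include those of its antisense gene, were thus fewer than those of Pnpla2 in every untreated library and slightly more in every LPS library, a shift of 0.82 log2 (exact permutation p = 0.1, two-sided, the smallest possible).

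Hilpda encodes the inhibitor of the lipase (ENSMUSG00000043421; chromosome 6, 29272488 to 29275446, plus strand). It stood at 3.71, 3.85 and 4.29 log2 CPM untreated and at 4.49, 4.20 and 4.50 with LPS. The groups overlapped through untreated replicate 3. The difference of 0.45 log2 (SE 0.18; 95% interval 0.06 to 0.83) missed the threshold (adjusted p = 0.0574, limma), and it passed without untreated replicate 3 (0.62, adjusted p = 0.0116), without LPS replicate 2 (0.54, adjusted p = 0.0404), with a weight per library (adjusted p = 0.00348) and when only genes averaging at least 10 CPM were tested (adjusted p = 0.0472). Across all 18 alternatives its adjusted p ran from 0.00128 to 0.192.

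Relative to the lipase that it inhibits, Hilpda was higher with LPS. The log2 ratio of Hilpda to Pnpla2 was -1.55, -1.28 and -0.66 untreated and 0.42, -0.13 and 0.08 with LPS. The groups did not overlap, and the shift was 1.29 log2 (exact permutation p = 0.1, two-sided, the smallest possible).

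Dgat2 encodes one of 2 unrelated enzymes that complete triglyceride synthesis (ENSMUSG00000030747; chromosome 7, 99153658 to 99182719, minus strand). It stood at -2.85, -1.58 and 0.02 log2 CPM in untreated replicates 1 to 3 and at 3.82, 3.32 and 3.61 with LPS. Untreated replicate 1 was at the lowest value of its library, and the other untreated values correspond to about 0.7 and 2.7 reads, so Dgat2 passed the filter on low values only through the LPS-treated libraries. The fitted difference was 5.05 log2 (SE 0.54; adjusted p = 5.04e-06, limma). A fit with no filter used the same Dgat2 values (adjusted p = 5.03e-06, limma), so it is no separate check of how Dgat2 entered. The difference was 4.36 without untreated replicate 1 and 5.80 without untreated replicate 3, so its size rests on a few untreated reads. Pooled over the group, about 92 reads in 7.98 M with LPS stood against about 4 in 12.1 M untreated, a ratio of rates of 34.9. These reads and depths were estimated from the deposited values, and the reads were rounded. The binomial 95% interval of 13.2 to 130.6 treats them as counts, so it covers counting error only and not the error of the estimate.

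Dgat1 encodes the other enzyme, which resides in the endoplasmic reticulum (ENSMUSG00000022555; chromosome 15, 76502015 to 76511953, minus strand). It stood at 3.95, 4.35 and 4.91 log2 CPM untreated and at 4.53, 4.50 and 4.34 with LPS. The LPS values fell inside the range of the untreated ones, which had the largest spread of any member other than Dgat2 in that group (SD 0.49). The difference was 0.05 log2 (95% interval -0.41 to 0.51; adjusted p = 0.863, limma). The log2 ratio of Dgat2 to Dgat1 was -6.80, -5.93 and -4.89 in untreated libraries and -0.71, -1.19 and -0.73 with LPS (exact permutation p = 0.1, two-sided, the smallest possible). The untreated ratios rest on about 0.0, 0.7 and 2.7 Dgat2 reads, the first at the lowest value of its library, so their size means little. Since Dgat2 passed the filter only through treated libraries, this p is no separate support for its rise. Dgat2 transcripts stayed below those of Dgat1 in every LPS library.

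How far these falls and rises hold depends in part on the scaling, since the deposited values have nearly the same distribution in all libraries. With each library centred on the ribosomal protein genes, the all-gene median was 0.37 log2 instead of -0.06, and the calls went from 2628 higher and 3102 lower to 4357 higher and 1568 lower. Under that scaling Plin2 stayed called at -1.84 and Dgat2 at 5.48, Plin3 (-0.23, adjusted p = 0.352) and Pnpla2 (-0.42, adjusted p = 0.0809) were no longer called, Hilpda was called at 0.87 (adjusted p = 0.00128, limma), and Abhd5 changed sign to 0.41 without being called.

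**Figure D2:**
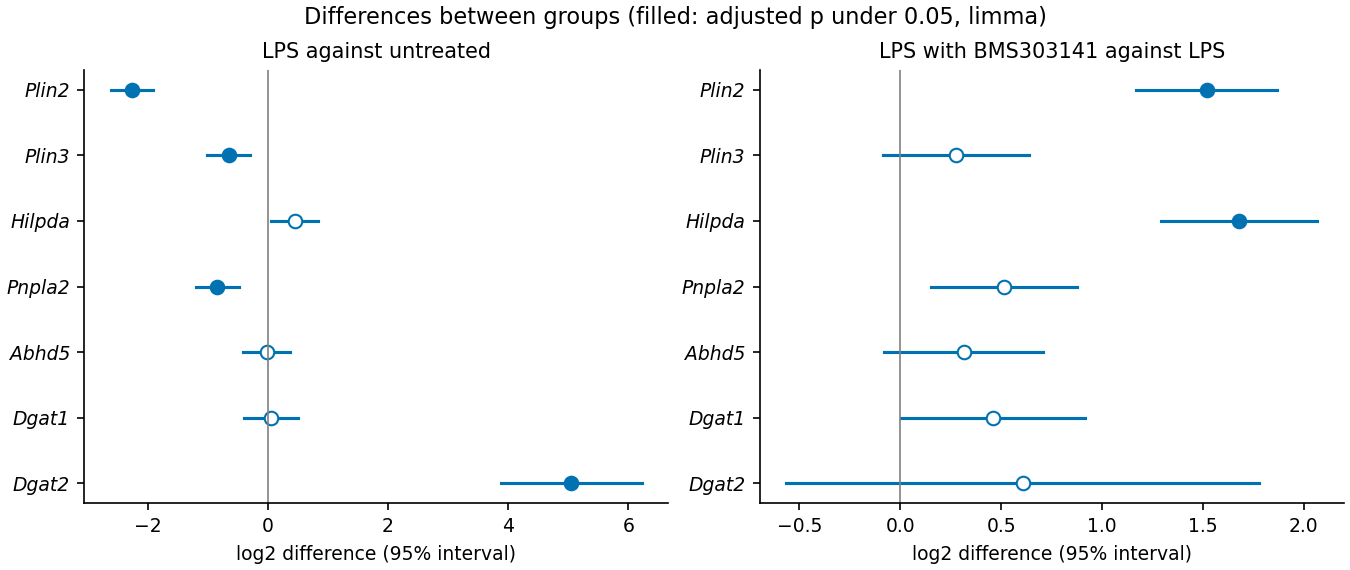
Log2 differences of the 7 members (x axis; points with 95% intervals from limma) for LPS against untreated at left and for LPS with BMS303141 against LPS at right, with filled points called at an adjusted p under 0.05. At left Plin2 lies at -2.26 and Dgat2 at 5.05; at right only the intervals of Plin2 (1.17 to 1.87) and Hilpda (1.29 to 2.07) belong to called genes.

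Pretreatment with BMS303141 raised Plin2 and Hilpda above LPS alone, each about 3-fold. Plin2, which LPS had lowered, came back part of the way to its untreated level, whereas Hilpda went beyond the level of both other groups. The other 5 members had higher means with the inhibitor and did not pass the test. Thus 2 of 7 members were called higher and 0 lower (limma, adjusted p under 0.05), where 0.959% of all tested genes were called higher and 1.16% lower (2.12% in all). With all 7 means higher, no member could be called lower. The median difference of the members was 0.51 log2, against 0.00 (-0.0043) over all tested genes.

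Plin2 stood at 7.30, 6.52 and 6.77 log2 CPM with LPS and at 8.31, 8.30 and 8.54 with LPS + BMS. Every library with the inhibitor lay above every LPS library. The difference was 1.52 log2 (SE 0.16; 95% interval 1.17 to 1.87), a 2.87-fold rise (adjusted p = 0.000506, limma). Leaving out single libraries gave 1.35 (without LPS replicate 2) to 1.74 (without LPS replicate 1), and 92 tested genes had a larger difference.

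Hilpda stood at 4.49, 4.20 and 4.50 log2 CPM with LPS and at 6.18, 6.13 and 5.92 with LPS + BMS. The gap between the groups was many times their spread. The difference was 1.68 log2 (SE 0.18; 95% interval 1.29 to 2.07), a 3.2-fold rise (adjusted p = 0.000506, limma), and 62 tested genes had a larger one. Both calls held in all 18 alternatives, with an adjusted p of at most 0.0243 for Plin2 and 0.0171 for Hilpda.

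The lipase itself moved less. Pnpla2 stood at 4.67, 5.01 and 4.67 log2 CPM with LPS + BMS, above all 3 LPS libraries, at a difference of 0.51 log2 (95% interval 0.15 to 0.87) that limma did not call (adjusted p = 0.160). The log2 ratio of Hilpda to Pnpla2 was 1.51, 1.11 and 1.25 with LPS + BMS, against 0.42, -0.13 and 0.08 with LPS. Transcripts of the inhibitor thus outnumbered those of the lipase in each library with BMS303141, with a shift of 1.17 log2 (exact permutation p = 0.1, two-sided, the smallest possible).

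Abhd5 stood at 4.55, 4.63 and 4.97 log2 CPM with LPS + BMS, which overlaps the LPS libraries, and was 0.32 higher on average (95% interval -0.08 to 0.71), which limma did not call (adjusted p = 0.453). The ratio of Abhd5 to Pnpla2 spread widely with the inhibitor, at -0.13, -0.39 and 0.30 log2. Its mean lay 0.20 below that of LPS libraries (-0.20), and the groups overlapped (exact permutation p = 0.4, two-sided).

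Plin3 stood at 4.67, 4.28 and 4.59 log2 CPM with LPS + BMS, with replicate 2 inside the LPS range, and was 0.28 higher on average (95% interval -0.08 to 0.64), which limma did not call (adjusted p = 0.471). The log2 ratio of Plin2 to Plin3 was 3.64, 4.02 and 3.96, above all LPS libraries and below all untreated ones. The shift from LPS was 1.24 log2 (exact permutation p = 0.1, two-sided, the smallest possible), and the groups did not overlap.

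**Figure D3:**
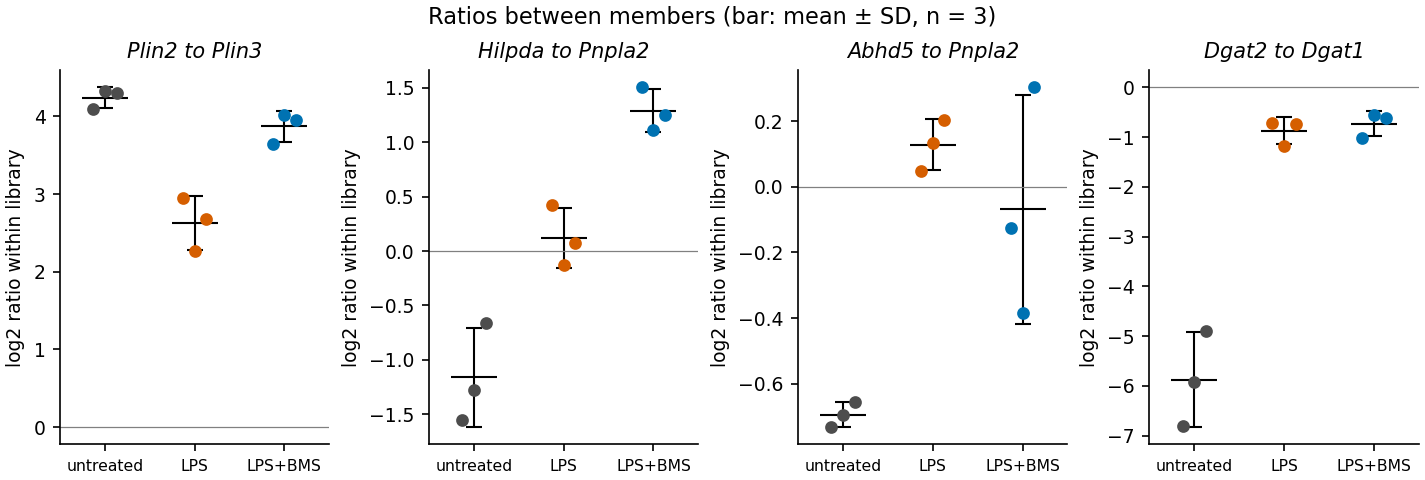
Log2 ratios between pairs of members within each library (y axis, with a range of its own in each panel) for untreated, LPS and LPS + BMS libraries (x axis); points are libraries and bars the mean and SD of 3. The ratio of Hilpda to Pnpla2 steps up at both treatments, from a mean of -1.16 to 0.12 and then 1.29, while that of Abhd5 to Pnpla2 steps up only from untreated (-0.69) to LPS (0.13) without overlap.

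Both triglyceride-forming enzymes had higher values with the inhibitor without passing the test. Dgat1 stood at 4.92, 4.86 and 4.97 log2 CPM, above all LPS libraries, at a difference of 0.46 (95% interval 0.00 to 0.92, lower bound 0.0039; adjusted p = 0.330, limma). Dgat2 stood at 3.90, 4.30 and 4.36, also above all LPS libraries, at a difference of 0.61 (95% interval -0.56 to 1.78; adjusted p = 0.641, limma). The interval of Dgat2 is wide because the fit pools the spread of all groups, and its untreated libraries had an SD of 1.44 against 0.25 in each of the others. In all, 5 of the 7 members lay higher without overlap with LPS alone, which 10.1% of all tested genes did, and 0 lay lower, against 11.2% (21.4% in either direction). The ratio of Dgat2 to Dgat1 was -1.02, -0.56 and -0.61 log2 with the inhibitor and overlapped that of LPS libraries (exact permutation p = 0.5, two-sided).

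Another measure moved in the same libraries. Of 10 neutrophil markers 3 had values, and their sum was 11.3 to 34.2 CPM untreated, 38.1 to 66.7 with LPS and 183 to 277 with LPS + BMS, led by S100a8, an alarm protein (5.46 ± 0.46 log2 CPM with LPS and 7.75 ± 0.31 with LPS + BMS; SD, n = 3). With the inhibitor 2 of the 3 rose: S100a8 by 2.29 log2 (adjusted p = 0.00377) and Mmp8, neutrophil collagenase, by 1.63 (mean 2.19 to 3.82; adjusted p = 0.00996, limma). S100a9, the partner of S100a8, was at 0.49 (adjusted p = 0.863). The defining neutrophil genes Ly6g, Elane, Mpo, Ltf, Camp and Ngp had no row to analyse, and the part of other cells in the rise of Plin2 and Hilpda was not tested. The single measured markers of other lists were Lck for lymphocytes (0.49, 1.47 and 0.63 log2 CPM on average in UT, LPS and LPS + BMS), Hdc for erythroid and mast cells (1.26, 6.82 and 6.12) and Itgax for dendritic cells (1.81, 4.04 and 2.36), the latter 2 also expressed by stimulated macrophages. Sparc led the 3 measured of 8 stromal markers, at 2.44, 2.94 and 1.91.

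Set against untreated macrophages, those with BMS303141 and LPS had less Plin2 and more Hilpda and Dgat2. This comparison shares its libraries with the comparisons above. Plin2 was at -0.74 log2 (SE 0.16; adjusted p = 0.00203, limma), a 1.67-fold fall, and was not called when libraries were centred on ribosomal protein genes (-0.34, adjusted p = 0.155). Hilpda was at 2.12 (SE 0.18; adjusted p = 5.2e-07), a 4.36-fold rise, and Dgat2 at 5.66 (SE 0.54; adjusted p = 1.75e-06, limma). Dgat2 again entered through the treated libraries, and its difference was 4.97 without untreated replicate 1 and 6.41 without untreated replicate 3. The pooled rates of estimated reads had a ratio of 55.2, with a binomial 95% interval of 21.2 to 204.5 for counting error only. Thus 2 of 7 members were called higher and 1 lower, where 21.5% and 25.6% of all tested genes were (47.1% in all). Without overlap, 3 members lay higher (Hilpda, Abhd5 and Dgat2) and 2 lower (Plin2 and Plin3), against 27.2% and 32.2% of all tested genes (59.4% in all).

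Plin3 (-0.37, adjusted p = 0.0827), Pnpla2 (-0.33, adjusted p = 0.125), Abhd5 (0.30, adjusted p = 0.200) and Dgat1 (0.51, adjusted p = 0.0622, limma) did not pass against untreated. Dgat1 passed without untreated replicate 3, the highest of that group (0.77, adjusted p = 0.00446). With centring on ribosomal protein genes, the all-gene median was 0.35 log2 instead of -0.05, and the calls went from 2627 higher and 3120 lower to 4363 higher and 1647 lower. It turned the signs of Plin3 (0.029) and Pnpla2 (0.075), and Dgat1 (0.92, adjusted p = 0.00163) and Abhd5 (0.70, adjusted p = 0.00997, limma) were then called.

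The order of the members by level changed with treatment. In all 3 groups Plin2 was the most abundant, at a mean of 560.0 CPM untreated, 119.7 with LPS and 335.3 with LPS + BMS, and Dgat2 had the lowest mean, though with LPS + BMS its range overlapped that of Plin3 and it lay above Plin3 in replicate 2. In untreated libraries Pnpla2 and Plin3 followed, with ranges that overlapped, then Abhd5, Dgat1 and Hilpda, again with overlapping neighbours. With LPS the 5 genes between Plin2 and Dgat2 lay within 0.22 log2 of each other on average, and each neighbour overlapped the next. With LPS + BMS Hilpda stood second, at 67.6 CPM, and separate from both its neighbours, Plin2 above and Dgat1 below, in all 3 libraries.

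The wider lipid genes were followed in 7 lists with 77 tested genes, drawn up with earlier results of these data known. With LPS 33 of them fell (42.9%, against 25.4% of all tested genes) and 16 rose (20.8%, against 21.5%). The falls include Lpin1, which passed the filter on low values only because it was high in untreated libraries. With the inhibitor 3 rose (3.9%) and 0 fell, against 0.959% and 1.16% of all tested genes. Of 9 tested genes of droplet coat and assembly 5 fell and 2 rose with LPS (list median -0.49 log2, against -0.06 over all tested genes, of which 25.4% fell and 21.5% rose). Vps13c, a lipid transfer protein found at droplets, fell by 2.45 (adjusted p = 3.57e-07), and Mettl7a1, a protein of droplets and the endoplasmic reticulum, fell by 2.60 (adjusted p = 1.87e-05, limma). None of the 9 was called with the inhibitor (limma), and the smallest p belonged to Tmem159, a partner of seipin in droplet assembly, at -0.46 (adjusted p = 0.267).

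Of 5 tested genes of lipolysis and its regulators 4 fell and 0 rose with LPS (median -1.33), where 25.4% of all tested genes fell and 21.5% rose. Lipa, the lysosomal acid lipase, fell by 2.73 (adjusted p = 2.19e-09), and Nceh1, a hydrolase of cholesterol esters, fell by 3.44 (adjusted p = 2.57e-09, limma). These falls were steeper than that of Pnpla2. With the inhibitor neither was called, at -0.07 for Lipa and 0.00 (0.0013) for Nceh1, and no gene of the list was called (median 0.0013; smallest p for Abhd12, a lysophospholipid lipase, at -0.33, adjusted p = 0.253, limma).

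Glycerolipid synthesis was divided. Of 12 tested genes 5 rose and 3 fell with LPS (median 0.38), next to 21.5% and 25.4% of all tested genes. The 3 falls include Lpin1, named here for its low level, at a mean of 3.30 log2 CPM untreated and -1.44 with LPS. Lpin1 passed the filter on low values only because it was high in untreated libraries, so the count of falls supports nothing about the list. Acsl1, which activates long-chain fatty acids, rose by 3.49 (adjusted p = 7.05e-11), while Lpin2, a phosphatidate phosphatase that makes diacylglycerol, fell by 2.25 (adjusted p = 9.25e-08, limma). With the inhibitor none was called (median 0.03), the smallest p being that of Acsl4 at 0.24 (adjusted p = 0.379).

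Of 10 tested genes of fatty acid uptake and binding 5 fell and 2 rose with LPS (median -0.41), next to 25.4% and 21.5% of all tested genes. Lpl, lipoprotein lipase, fell by 2.08 (adjusted p = 6.19e-09), and Fabp3, a fatty acid binding protein, rose by 2.71 (adjusted p = 7.99e-06, limma). With the inhibitor 1 of the 10 was called, where 2.12% of all tested genes were: Fabp4, the fatty acid binding protein of adipocytes and macrophages, rose by 1.39 (adjusted p = 0.0271, limma). That call ended in a fit with a replicate block (adjusted p = 0.0548), without a mean trend (0.0608), and without LPS replicate 1 or 2 or any LPS + BMS replicate (adjusted p up to 0.123).

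Of 20 tested genes of fatty acid oxidation 9 fell and 2 rose with LPS (median -0.49), next to 25.4% and 21.5% of all tested genes. In either direction the share of calls was near the 47.0% of all tested genes. Cpt1a, which brings fatty acids into mitochondria, fell by 2.02 (adjusted p = 1.22e-06), and Ucp2, a mitochondrial carrier, fell by 1.43 (adjusted p = 2.19e-06, limma). None was called with the inhibitor (median -0.03), the smallest p being that of Hadha at -0.30 (adjusted p = 0.215). Of 11 fatty acid synthesis genes 2 fell and 1 rose with LPS (median -0.45), a smaller share of calls than the 47.0% of all tested genes, the falls being Fads1 (-2.31, adjusted p = 6.98e-06) and Scd2 (-2.93, adjusted p = 3.25e-05, limma), both desaturases. With the inhibitor Scd2 was at 1.54 and missed the threshold (adjusted p = 0.0578, limma; list median 0.29). Over its alternatives the adjusted p ran from 0.0101 to 0.258, and 4 of them called it: weights per library (0.0101), the replicate block (0.0422), without LPS replicate 2 (0.0432) and ribosomal protein centring (0.0489).

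Of 10 transcription factor genes tied to lipid metabolism 5 fell and 4 rose with LPS (median -0.30), next to 25.4% and 21.5% of all tested genes. Cebpa, a factor of myeloid and fat cells, fell by 3.59 (adjusted p = 3.28e-09) and Cebpb rose by 2.73 (adjusted p = 1.36e-08, limma). With the inhibitor 2 rose and 0 fell (median 0.32), next to 0.959% and 1.16% of all tested genes: Cebpa by 0.93 (adjusted p = 0.0192) and Rxra, the partner of the PPAR and LXR receptors, by 1.47 (adjusted p = 0.0294, limma). Both had fallen with LPS, Rxra by 2.87. The call of Cebpa ended without a mean trend and without LPS + BMS replicate 1 or 2 or LPS replicate 3 (adjusted p up to 0.107). That of Rxra ended in 8 of 17 alternatives, among them those without any LPS + BMS replicate, LPS replicate 1 or 2 or untreated replicate 2 (adjusted p up to 0.147). Named after their values were seen, Pparg, whose product is known to drive Plin2 in fat cells, fell by 3.44 with LPS and was at -0.56 with the inhibitor (adjusted p = 0.398), and Hif1a, whose product is known to drive Hilpda in hypoxia, rose by 1.49 with LPS and was at 0.34 with the inhibitor (adjusted p = 0.179, limma). Ppard, another PPAR gene of the list, went the other way from Pparg. It rose by 1.73 with LPS (adjusted p = 0.000188) and was at 0.35 with the inhibitor (adjusted p = 0.596, limma). Whether any of these factors acts on Plin2 or Hilpda here was not tested.

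**Figure D4:**
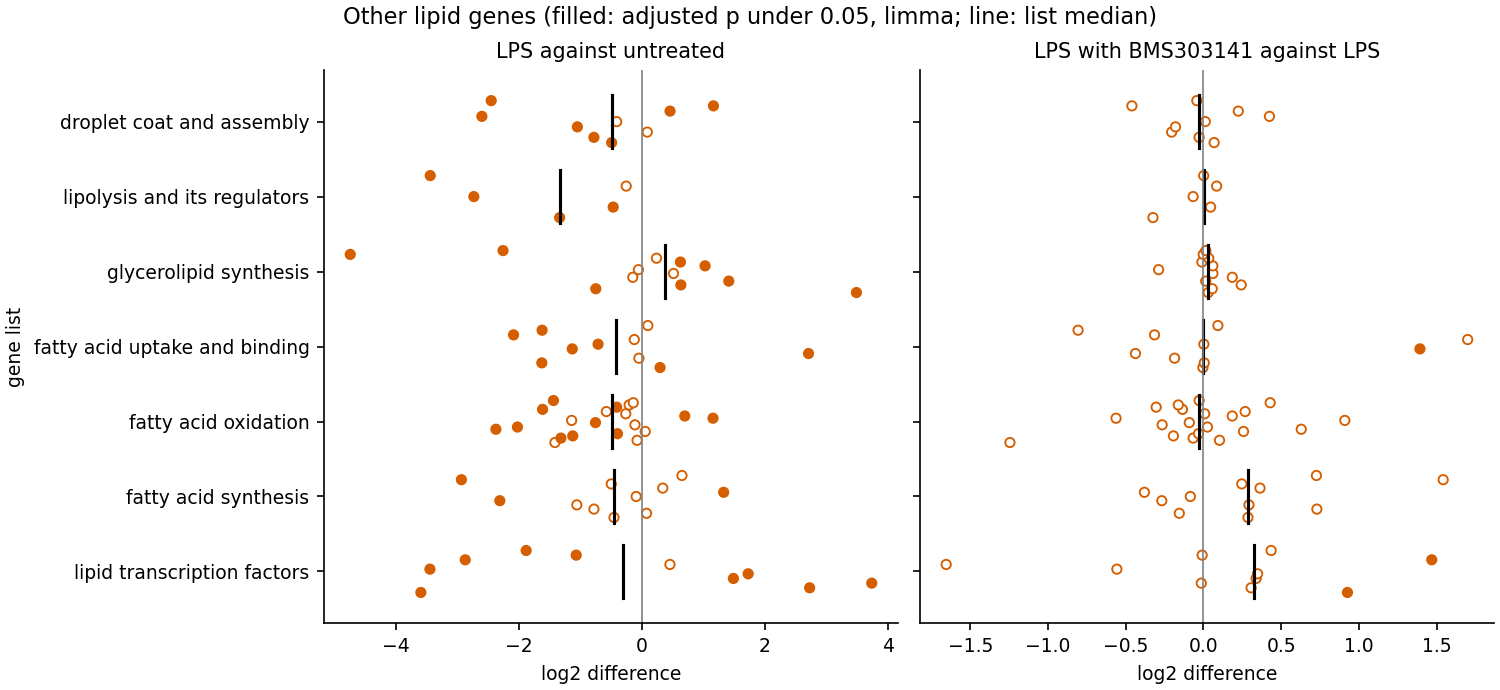
Log2 differences (x axis) of the tested genes of 7 lipid lists (y axis) for LPS against untreated at left and LPS with BMS303141 against LPS at right; each point is a gene, filled where called by limma, and lines mark list medians. Many points are filled at left, with a median of -1.33 for lipolysis, and 3 at right, which are Fabp4, Cebpa and Rxra.

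The genes whose profiles over the 9 libraries lay closest to Plin2 and Hilpda were ranked by likeness. Likeness was the root mean square difference between log2 profiles after each was set to a mean of 0, among 5619 named genes at or above the median level. Closest to Plin2 were Irf8, a transcription factor of the myeloid lineage (0.26 log2), Il6ra, an IL-6 receptor chain (0.29), Neat1, a nuclear non-coding RNA (0.30), Abi3, an adaptor of actin regulation (0.32), and Bhlhe41, a transcriptional repressor (0.40). Il6ra went from 5.49 log2 CPM untreated to 3.48 with LPS and 4.72 with LPS + BMS. Closest to Hilpda were Hmox1, the haem-degrading enzyme (0.20), Ggta1, a galactosyltransferase (0.27), Nek6, a kinase (0.34), Gys1, a glycogen synthase (0.39), and March1, a ubiquitin ligase (0.40). Hmox1 went from 7.30 untreated to 7.70 with LPS and 9.47 with LPS + BMS. Plin2 and Hilpda differed from each other by 1.34. The genes above were picked for the smallest differences, so they are no yardstick for that value. Plin2 differed by 0.67 from Pnpla2, 0.72 from Plin3, 0.97 from Abhd5, 0.99 from Dgat1 and 3.32 from Dgat2. For Hilpda the values were 0.71 from Dgat1, 0.83 from Abhd5, 1.04 from Pnpla2, 1.05 from Plin3 and 2.05 from Dgat2. The profiles share the same 9 libraries and group steps, so likeness describes only their shape.

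**Figure D5:**
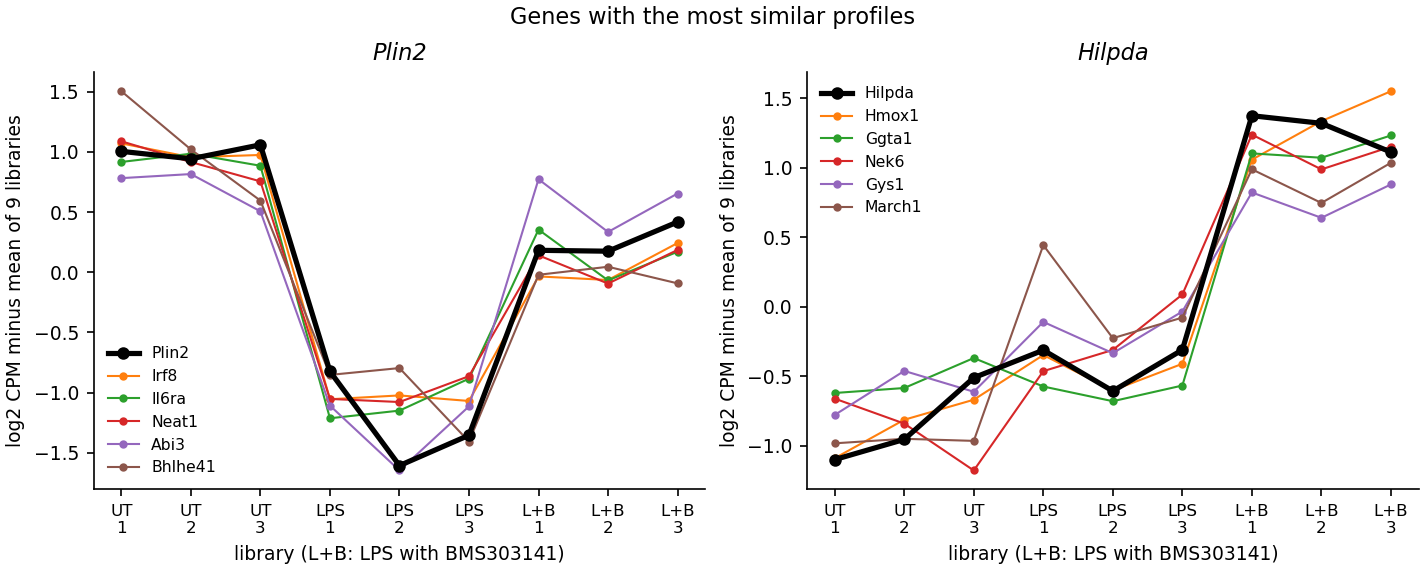
Log2 CPM minus the mean of 9 libraries (y axis) for Plin2 at left and Hilpda at right (thick black lines) and the 5 genes most like each (thin lines), by library (x axis; lines only join the values of a gene). Plin2 and its nearest genes drop with LPS and come back in part with BMS303141, while Hilpda and its nearest genes are highest in the 3 libraries with BMS303141.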

How the data were processed

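The 9 libraries were made from 100 ng RNA with a poly(A)-primed 3′ mRNA kit (QuantSeq forward, Lexogen) and 16 PCR cycles, per the labels' protocols; no molecular identifiers are mentioned, so PCR copies may be counted. Per the submitters' processing notes, GRCm38 (mm10) was the build and limma, edgeR, MultiQC, featureCounts 1.5.1 and STAR 2.5.2b were used, with no role stated; for annotation, strand setting and gene filter the sources used here give nothing. Each deposited value is a score in log2 units, taken here as quantile-normalised log2 CPM because library totals on the linear scale are all between 987472 and 987498 and library medians between 3.84 and 3.87. Such values hide a change common to most transcripts.

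Read depth was estimated from the spacing of distinct values 5 to 40 of each library and is approximate. Of 12204 identifiers 12181 matched a symbol (GENCODE M21, which also gave gene coordinates). The filter kept 12196 genes that reached 0 log2 CPM in 3 or more libraries and removed 8. They entered one limma 3.58.1 model (R 4.3.3) with a mean per group and a mean trend, two-sided, with Benjamini-Hochberg adjustment over all tested genes and calls at an adjusted p under 0.05. SE and 95% intervals come from that model. Ratios were compared with exact permutation tests. The fit was tested on simulated data. The members and lists were chosen with earlier results of these data known. Named genes are the members, up to 2 called genes with the smallest p per list and comparison (or the gene with the smallest p), the 5 nearest profiles of Plin2 and Hilpda (leaving out predicted genes), and the most abundant gene of each marker list; others are marked. Alternatives were a replicate term, no filter or at least 10 CPM, repeated quantile normalisation, median or ribosomal protein centring, weights per library, a fit of only the compared groups, no mean trend and leaving out each library.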

Additional observations from a re-analysis of the deposited data

How the results depend on the processing

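Of 375 refits of a member's difference, 355 kept both direction and side of the threshold, 3 lost a call, 10 gained one and 7 changed sign without being called. In many of these refits the difference could not change, only the call. These were the fits with another filter, no mean trend, a replicate block or only the compared groups, and those without a library of the group not compared. The 355 therefore overstate how far direction was checked. The sign changes were in Abhd5 with LPS (0.41 with ribosomal protein centring, 0.13 with weights per library, and -0.13 to 0.12 when 1 library was left out, positive without LPS replicate 1 or untreated replicate 1, the latter 0.034), Dgat1 with LPS (-0.18 to 0.31 when 1 library was left out, negative without untreated replicate 1), and Plin3 (0.029) and Pnpla2 (0.075) in LPS + BMS against untreated with ribosomal protein centring; the cause was not tested. The number of members called stayed at 2 for the inhibitor against LPS in every alternative run. Leaving out 1 library gave 4 to 5 for LPS against untreated and 3 to 4 for LPS + BMS against untreated. Weights per library gave 5 in both of these comparisons. Ribosomal protein centring gave 3 for LPS against untreated (2 higher, 1 lower) and 4 for LPS + BMS against untreated (4 higher, 0 lower). The 10 CPM filter gave 2 for LPS + BMS against untreated. Over all genes the inhibitor comparison had 258 calls, 99 without a mean trend (43 higher, 56 lower), 814 with weights per library (407 each way) and 62 to 318 when 1 library was left out; the fewest came without LPS + BMS replicate 3. Leaving out 1 library, the ratio of Dgat2 to Dgat1 with the inhibitor ran from -0.0094 to 0.29, turning sign without LPS replicate 2. In a fit with a replicate block the members called were 4, 2 and 3 in the order of the comparisons, as without it, and the inhibitor comparison had 208 calls; same-numbered libraries did not deviate together (correlations of -0.30 to 0.17), so the numbers were not taken as pairs, and apart from Fabp4 above and Scd2, which gained one (adjusted p = 0.0422), no call of a named gene changed. Dgat2 has no value under the 10 CPM filter, which removes it, and no pseudocount was varied because the values are already logarithms. Values near the floor, as of untreated Dgat2, rest on a few reads, and depth limits their precision.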
